A study of Mus musculus with 4 samples.

Results

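The mitochondrial ribosomal protein genes were followed in control and KAT6A knockout mouse ES cells. They were taken as every counted gene symbol made of Mrpl or Mrps, a number and at most 1 final letter, which gave 78 of 41543 symbols, and 77 of the 78 passed the filter on low counts. The study has 4 mRNA libraries of the mouse ES cell line E14TG2a: 2 come from control cells and 2 from cells labelled KAT6A KO, in which CRISPR/Cas9 was used to disrupt Kat6a, a gene for a histone acetyltransferase. All 4 were grown on gelatin in serum medium with LIF. The labels do not say whether a knockout library is a separate clone or culture, so every p-value measures only the spread between these samples.

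The mitochondrial ribosome, or mitoribosome, translates the few mRNAs that the mitochondrial genome encodes, which are core subunits of the respiratory chain. Its RNAs are made in the mitochondrion, whereas its proteins are encoded in the nucleus by genes scattered over many chromosomes, translated in the cytosol and imported. Mrpl genes code for proteins of the large subunit, which forms peptide bonds, and Mrps genes for proteins of the small subunit, which reads the mRNA. A few of the symbols go against that division, since the products of Mrps30 and Mrps18a sit in the large subunit and Mrps36 is known as a component of the α-ketoglutarate dehydrogenase complex.

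The libraries held 27494041 to 37354623 counts, and 16112 genes were tested. Kat6a RNA, given first because the labels name this gene, stood at 145 and 143 CPM (read counts scaled to an equal library size of 1e6) in control replicates 1 and 2. The libraries labelled KAT6A KO held 242 CPM (replicate 1) and 86.4 CPM (replicate 2). The level therefore lay above the controls in 1 knockout library and below them in the other (log2 fold change 0.19 ± 0.41 SE, edgeR quasi-likelihood test, Benjamini-Hochberg adjusted p = 0.772). The RNA level does not show whether the protein was lost, and knockout below means the libraries so labelled. The 7 ES cell marker genes summed to 4085 and 4120 CPM in the controls and 5163 to 5322 CPM in the knockout libraries. Endoderm markers (5 genes) summed to 149 to 156 CPM in the controls and 28.4 to 67.5 CPM in the knockout, trophoblast markers (4 genes) to 14.2 to 16.5 and 6.51 to 6.80, fibroblast markers (5 genes) to 15.5 to 16.5 and 19.9 to 22.5, and neural markers (4 genes) to 21.6 to 23.1 and 25.3 to 31.3. The ES cell, trophoblast, fibroblast and neural sums mix genes that differed. Of the ES cell markers, Tfcp2l1, Esrrb and Pou5f1 had log2 fold changes of 0.60, 0.56 and 0.52. Zfp42 (0.19), Sox2 (0.16) and Klf4 (0.02) lay nearer to 0, and Nanog (-0.07) lay below it. Among trophoblast markers, Hand1, on chromosome 11, had a log2 fold change of -3.15 and Eomes one of -0.05. Cdx2 and Elf5 reached at most 0.405 CPM. Of the tested fibroblast markers, Thy1 (0.46) and Col1a1 (0.45) lay above 0 and Col1a2 (-0.37) below. Of the neural markers, Sox1 (1.03) and Neurod1 (0.84) lay above 0 and Pax6 (-0.05) and Map2 (-0.21) below. No marker gene was at 0 in all 4 libraries. The part of these markers in the results below was not tested, and fewer cells of a type cannot be told apart from less RNA per cell.

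The mitoribosomal genes did not move as 1 block: 8 were lower in the knockout, 0 were higher, and all 8 lower genes were on chromosome 11. These were Mrpl10, Mrpl22, Mrpl27, Mrpl38, Mrpl45, Mrpl55 and Mrpl58 of the large subunit and Mrps23 of the small subunit, at 0.613 to 0.715 times their control level (edgeR adjusted p from 0.0103 to 0.0374, n = 2 libraries a group, in a test fitted across all genes). Among all 16112 tested genes, 8.57% were called lower and 5.76% higher, so 8 lower genes of 77 was close to the background for the whole set. The median log2 fold change of the 77 genes was -0.03, beside 0.01 for all tested genes, and 43 of the 77 were below 0. Both knockout libraries lay below both controls in 27 members and above both in 11, which 32.8% and 31.5% of all tested genes did. At an unadjusted p under 0.05, 15 members were lower and 5 higher, where 18.1% and 15.8% of all tested genes were. DESeq2 called 10 lower and 2 higher (10.2% and 7.62% of all genes), and limma-voom 8 lower and 0 higher (9.37% and 6.03%).

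**Figure D1:**
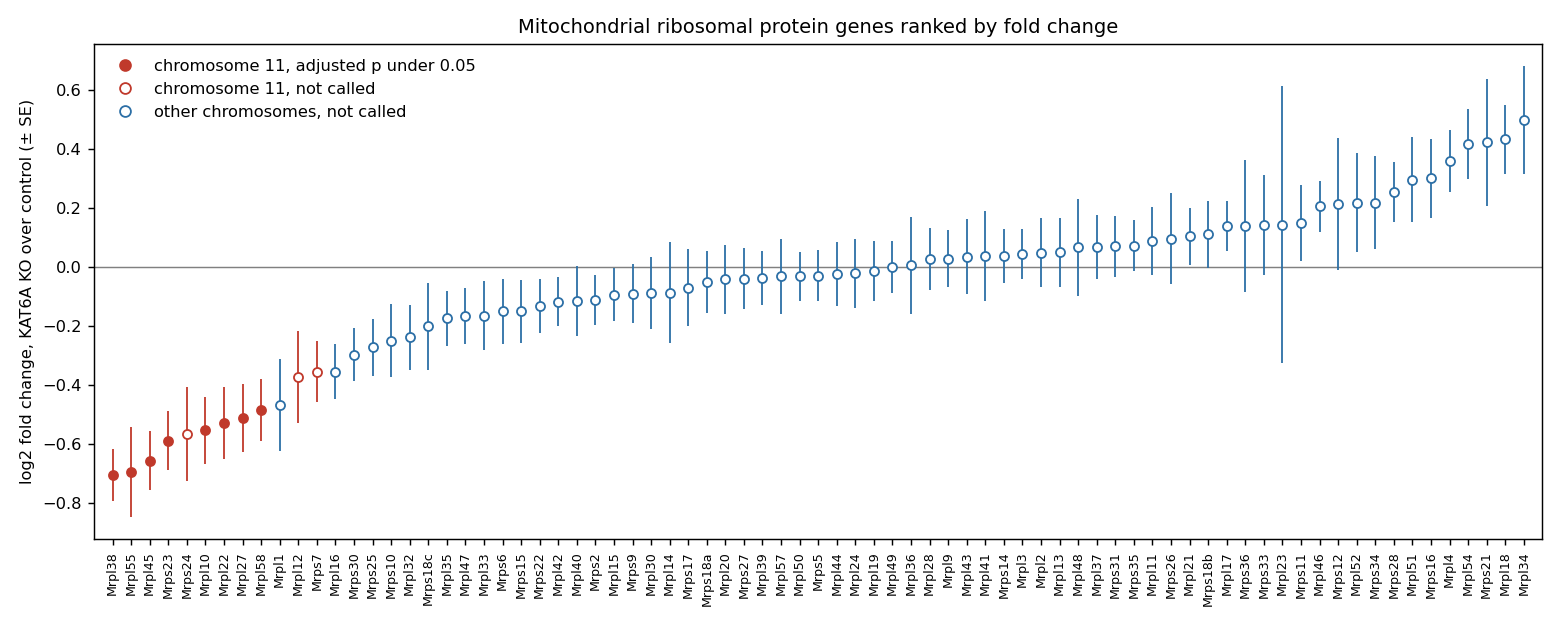
Log2 fold change (knockout over control, with its SE) of the 77 tested mitochondrial ribosomal protein genes in rank order. Red marks chromosome 11 and filled points mark an edgeR adjusted p under 0.05; the 8 filled points, all red, fall between -0.71 and -0.49, and the 66 genes elsewhere, in blue, between -0.47 and 0.50.

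Chromosome 11 holds 11 of the 78 genes, all of them tested, spread from position 5703983 to position 120489065 (GRCm38). All 11 lay below both controls in both knockout libraries, with log2 fold changes from -0.71 to -0.36 and a median of -0.55, which is a ratio of 0.681. The chromosome as a whole moved the same way: its 1319 tested genes had a median log2 fold change of -0.46 (ratio 0.729), 40.6% of them were called lower, 0.682% were called higher, 77.0% lay below both controls in both knockout libraries and 4.40% lay above. The genes on other chromosomes had a median of 0.04 (14532 tested), with 5.73% called lower and 6.20% higher. The part of the chromosome-wide shift in the values of the 11 mitoribosomal genes was not tested, and these genes are not independent of it.

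Mrpl38 (chr11:116131817-116138868, minus strand), a large-subunit protein with no bacterial homolog in the ribosome, had the largest fall of the set. It stood at 113 and 115 CPM in the controls and 66.8 and 73.1 CPM in the knockout libraries (log2 fold change -0.71 ± 0.09 SE, edgeR adjusted p = 0.0103). Mrpl55 (chr11:59202486-59206134), another large-subunit protein, was at 26.4 and 27.3 CPM in the controls and 14.4 and 18.8 CPM in the knockout (log2 fold change -0.69 ± 0.15 SE, adjusted p = 0.0337). Both genes had every knockout value below every control value, and in both the lower of the knockout values was replicate 1. Mrpl45 (chr11:97315716-97329920), whose product lies at the exit of the peptide tunnel and faces the inner membrane, was at 210 and 206 CPM in the controls and 122 and 143 CPM in the knockout (log2 fold change -0.66 ± 0.10 SE, adjusted p = 0.0147). It was the most abundant member of the 11 by CPM.

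Mrpl10 and Mrpl12 code for the proteins of the flexible stalk of the large subunit, which recruits translation factors. Mrpl10 (chr11:97041560-97049213) was at 94.5 and 95.4 CPM in the controls and 58.4 and 71.0 CPM in the knockout (log2 fold change -0.55 ± 0.11 SE, edgeR adjusted p = 0.0279). Mrpl12 (chr11:120484613-120489065) was at 131 and 134 CPM in the controls, 85.3 CPM in knockout replicate 1 and 119 CPM in knockout replicate 2 (log2 fold change -0.37 ± 0.16 SE, adjusted p = 0.147). Both genes lay below the controls in both knockout libraries, but for Mrpl12 the knockout libraries were far apart: its log2 fold change was -0.15 without knockout replicate 1 and -0.64 without knockout replicate 2. It did not pass the test in the 4 libraries.

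Mrpl22 and Mrpl27 are homologs of bacterial proteins at the heart of the large subunit, the first lining the peptide exit tunnel and the second near the peptidyl transferase centre. Mrpl22 (chr11:58171661-58179565) was at 45.6 and 42.5 CPM in the controls and 27.8 and 33.3 CPM in the knockout (log2 fold change -0.53 ± 0.12 SE, edgeR adjusted p = 0.0374). Mrpl27 (chr11:94653767-94660089) was at 26.6 and 26.3 CPM in the controls and 17.5 and 19.6 CPM in the knockout (log2 fold change -0.51 ± 0.12 SE, adjusted p = 0.0361). Mrpl58 (chr11:115403752-115412674), a peptidyl-tRNA hydrolase built into the large subunit, was at 49.7 and 51.2 CPM in the controls and 33.6 and 38.5 CPM in the knockout (log2 fold change -0.49 ± 0.11 SE, adjusted p = 0.0333). In all 3 genes the knockout and control libraries did not overlap.

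Of the 3 small-subunit genes on chromosome 11, 1 passed the test. Mrps23 (chr11:88204388-88211507), a mitochondria-specific protein, was at 91.0 and 86.8 CPM in the controls and 55.1 and 63.0 CPM in the knockout (log2 fold change -0.59 ± 0.10 SE, edgeR adjusted p = 0.0175). Mrps24 (chr11:5703983-5715680, minus strand), the homolog of a bacterial protein at the mRNA entry, was at 76.9 and 85.6 CPM in the controls and 46.0 and 63.8 CPM in the knockout (log2 fold change -0.57 ± 0.16 SE, adjusted p = 0.0628). It shares 15.4% of its exon bases with an overlapping gene on the same strand, Urgcp, and the authors' deposited table called it lower (log2 fold change -0.52, adjusted p = 0.00971). Mrps7 (chr11:115603925-115608036), a protein of the head of the small subunit, was at 107 and 109 CPM in the controls and 77.4 and 91.2 CPM in the knockout (log2 fold change -0.36 ± 0.10 SE, adjusted p = 0.0667). Mrps24 and Mrps7 too had no knockout value above a control value. Without knockout replicate 1, the log2 fold change of Mrps24 was -0.35, and without knockout replicate 2 it was -0.83.

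These calls rested on having both controls. Without control replicate 1, edgeR called 3 members lower: Mrpl38, Mrpl45 and Mrps24, beside 4.09% of all genes and 18.1% of those on chromosome 11. Without control replicate 2 it also called 3: Mrpl38, Mrpl45 and Mrps23, beside 3.94% and 16.7%. Calls for Mrpl10, Mrpl22, Mrpl27, Mrpl55 and Mrpl58 were lost in both cases (adjusted p from 0.0725 to 0.299), while all 11 genes stayed below 0.

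The neighbours of these genes were lower as well. For each of the 11, the 5 nearest tested genes on either side had a median log2 fold change between -0.56 and -0.28, and 2 to 7 of the 10 were called lower. The mitoribosomal gene was below the median of its neighbours in 9 of 11 cases on chromosome 11 and in 33 of 66 elsewhere. Of the 9, the smallest gap was for Mrpl58, at -0.49 beside -0.44 for its neighbours. The exceptions on chromosome 11 were Mrpl12, at -0.37 beside -0.56, and Mrps7, at -0.36 beside -0.40. By library, the median of the 11 was -0.69 in knockout replicate 1, beside -0.49 for all tested genes of the chromosome. In knockout replicate 2 it was -0.42, beside -0.43. The gap to the neighbours was not tested.

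Promoter sequence was read for the genes with a RefSeq window of 250 bases before to 50 bases after the start (GRCm38.p6), which 69 of the 78 had. Mitochondrial genes encoded in the nucleus are known for CpG-rich promoters with sites for NRF1, ETS-family factors such as GABP, and YY1, and KAT6A is itself named in the title of the series as a protein of unmethylated CpG islands. Windows with a GC content over 50% and a ratio of observed to expected CpG over 0.6 made up 79.7% of the mitoribosomal windows (55 of 69), 64.5% of those of tested genes and 41.4% of all 20552 windows. All 10 windows of mitoribosomal genes on chromosome 11 were of this kind, beside 69.4% for the tested genes of that chromosome. The 250 bases before the start are shown for 4 genes of chromosome 11 that fell, chosen to cover windows with an NRF1 core, an ETS core, both or neither, and for Mrpl18 of chromosome 17, which had among the highest fold changes. Each reads 5′ to 3′ on the gene's strand, and capitals mark the letters of a motif match. The windows are chr11:58171414-58171663 (Mrpl22), chr11:97041332-97041581 (Mrpl10), chr11:94653541-94653790 (Mrpl27), chr11:97315466-97315715 (Mrpl45), all on the plus strand, and chr17:12916092-12916341 on the minus strand (Mrpl18). The bases printed for Mrpl18 lie within its annotated gene (chr17:12911349-12916345). They precede the RefSeq start but not the annotated 5′ end.
Mrpl22: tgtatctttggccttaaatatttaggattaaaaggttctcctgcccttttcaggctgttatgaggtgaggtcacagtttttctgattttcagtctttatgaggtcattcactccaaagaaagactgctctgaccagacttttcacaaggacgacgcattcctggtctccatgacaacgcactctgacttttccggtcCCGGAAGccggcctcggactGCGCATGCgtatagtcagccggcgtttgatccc
Mrpl10: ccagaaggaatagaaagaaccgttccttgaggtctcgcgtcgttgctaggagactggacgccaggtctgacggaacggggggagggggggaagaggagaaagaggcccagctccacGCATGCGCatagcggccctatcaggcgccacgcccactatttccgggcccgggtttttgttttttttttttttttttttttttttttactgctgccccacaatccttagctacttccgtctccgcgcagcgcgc
Mrpl27: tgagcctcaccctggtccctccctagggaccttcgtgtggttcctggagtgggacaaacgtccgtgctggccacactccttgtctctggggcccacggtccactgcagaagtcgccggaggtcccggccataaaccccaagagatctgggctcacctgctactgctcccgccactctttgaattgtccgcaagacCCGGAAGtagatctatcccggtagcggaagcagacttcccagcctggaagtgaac
Mrpl45: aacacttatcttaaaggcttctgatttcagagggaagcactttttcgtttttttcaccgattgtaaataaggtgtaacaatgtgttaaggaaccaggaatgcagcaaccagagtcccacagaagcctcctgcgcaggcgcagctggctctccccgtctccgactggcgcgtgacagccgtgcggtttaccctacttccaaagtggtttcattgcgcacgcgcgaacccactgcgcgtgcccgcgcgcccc
Mrpl18: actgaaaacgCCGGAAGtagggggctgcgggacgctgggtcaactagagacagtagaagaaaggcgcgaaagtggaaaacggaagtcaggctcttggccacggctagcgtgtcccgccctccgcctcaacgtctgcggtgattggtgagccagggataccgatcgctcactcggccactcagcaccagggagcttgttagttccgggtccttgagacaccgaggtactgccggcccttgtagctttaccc

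The window of Mrpl22 holds an ETS core followed by an NRF1 core, that of Mrpl10 an NRF1 core and that of Mrpl18 an ETS core. That of Mrpl27 holds an ETS core and a YY1 match that does not lie within the printed bases. The window of Mrpl45 holds no match to the letters searched. The letters were GCGCATGC for NRF1, CCGGAAG for ETS factors, AANATGGCG for YY1 and CACGTG for the E-box, on both strands of the full windows, and none of these motifs contains another. The NRF1 letters were in 11.6% of the mitoribosomal windows and 5.16% of those of tested genes, the ETS letters in 34.8% and 16.9%, the YY1 letters in 15.9% and 4.85%, and the E-box letters in 7.25% and 9.97%. At least 1 of the 4 was in 53.6% of the mitoribosomal windows and 31.7% of those of tested genes. These matches describe letters in a window and say nothing of binding. The mRNAs of the regulators Nrf1, Gabpa and Yy1 had log2 fold changes of -0.06, -0.06 and 0.07, none of which passed the edgeR test.

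Away from chromosome 11, 66 of 67 mitoribosomal genes were tested and edgeR called 0 lower and 0 higher, where 5.73% and 6.20% of all genes away from that chromosome were called. Their median log2 fold change was 0.02, with 32 below and 34 above 0. At an unadjusted p under 0.05, 4 were lower and 5 higher, where 14.3% and 17.1% of all genes away from chromosome 11 were. DESeq2 called 1 lower, Mrpl1, and 2 higher, Mrpl18 and Mrpl54, beside 6.96% and 8.21% of those genes. Limma-voom called 0 in either direction, beside 6.41% and 6.50%. In 16 genes both knockout libraries lay below both controls and in 11 above, where 28.9% and 34.0% of all genes away from chromosome 11 did so.

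The lowest of these genes was Mrpl1 on chromosome 5, whose product forms the mobile stalk beside the exit site for tRNA. It was at 82.7 and 79.6 CPM in the controls, 68.2 CPM in knockout replicate 1 and 49.0 CPM in knockout replicate 2 (log2 fold change -0.47 ± 0.16 SE, edgeR adjusted p = 0.0906). The authors' deposited table called it lower, with a log2 fold change of -0.43 and an adjusted p of 0.0333. The highest was Mrpl34 on chromosome 8, a small protein of the large subunit, at 23.0 and 26.8 CPM in the controls, 29.1 CPM in knockout replicate 1 and 41.3 CPM in knockout replicate 2 (log2 fold change 0.50 ± 0.18 SE, adjusted p = 0.113). In both genes the groups did not overlap, and knockout replicate 2 was the farther of the knockout libraries from the controls. Without knockout replicate 1 the log2 fold change of Mrpl34 was 0.73, and without replicate 2 it was 0.22.

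Mrpl18 on chromosome 17, a large-subunit protein of the central protuberance, was at 78.8 and 79.3 CPM in the controls and 95.5 and 118 CPM in the knockout (log2 fold change 0.43 ± 0.12 SE, edgeR adjusted p = 0.0550). Without knockout replicate 1 its log2 fold change was 0.58 and without replicate 2 it was 0.27. It was the member that the authors' deposited table called higher, with a log2 fold change of 0.41 and an adjusted p of 0.0217. The other 3 of the highest 5 were Mrps21 on chromosome 3 at 0.42 ± 0.22 SE, Mrpl54 on chromosome 10 at 0.42 ± 0.12 SE and Mrpl4 on chromosome 9 at 0.36 ± 0.11 SE (edgeR adjusted p = 0.218, 0.0637 and 0.0685). The knockout and control values of Mrps21 overlapped: its log2 fold change was 0.70 without knockout replicate 1 and 0.08 without replicate 2. Across all members, the authors' deposited table called 10 lower, 9 of them on chromosome 11, and 1 higher, where 10.1% of the genes with an adjusted p in it were called lower and 6.94% higher.

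By subunit the values were close. Away from chromosome 11, the median log2 fold change was 0.00 for the 42 tested large-subunit genes and 0.04 for the 23 tested small-subunit genes, with 0 called in each by edgeR. Genes with a bacterial homolog had a median of -0.01 (39 genes) and mitochondria-specific genes a median of 0.04 (26 genes). On chromosome 11 the medians were -0.54 for 8 large-subunit and -0.57 for 3 small-subunit genes. These differences between classes were not tested. Mrpl46 and Mrps11, which overlap head to head on chromosome 7 and belong to different subunits, had log2 fold changes of 0.20 ± 0.09 SE and 0.15 ± 0.13 SE, and both missed the test (edgeR adjusted p = 0.157 and 0.457).

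The knockout libraries differed from each other across the set. Knockout replicate 2 had the higher level in 68 of the 77 genes. Away from chromosome 11 the median difference from the mean of the controls was -0.10 (log2 CPM) in knockout replicate 1 and 0.10 in knockout replicate 2, whereas over all genes away from chromosome 11 it was 0.03 in each. On chromosome 11 the mitoribosomal medians were -0.69 and -0.42, beside -0.49 and -0.43 for all genes of the chromosome. The controls differed from each other by a median of 0.01. When 1 knockout library was left out, the member calls away from chromosome 11 were 7 lower and 24 higher without knockout replicate 1, where 23.0% and 26.0% of all genes away from that chromosome were called. Without knockout replicate 2 they were 18 lower and 6 higher, where 19.2% and 22.6% were called. With 1 knockout library in the fit, the spread comes from the controls alone, and the lone library is assumed to vary as they do.

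**Figure D2:**
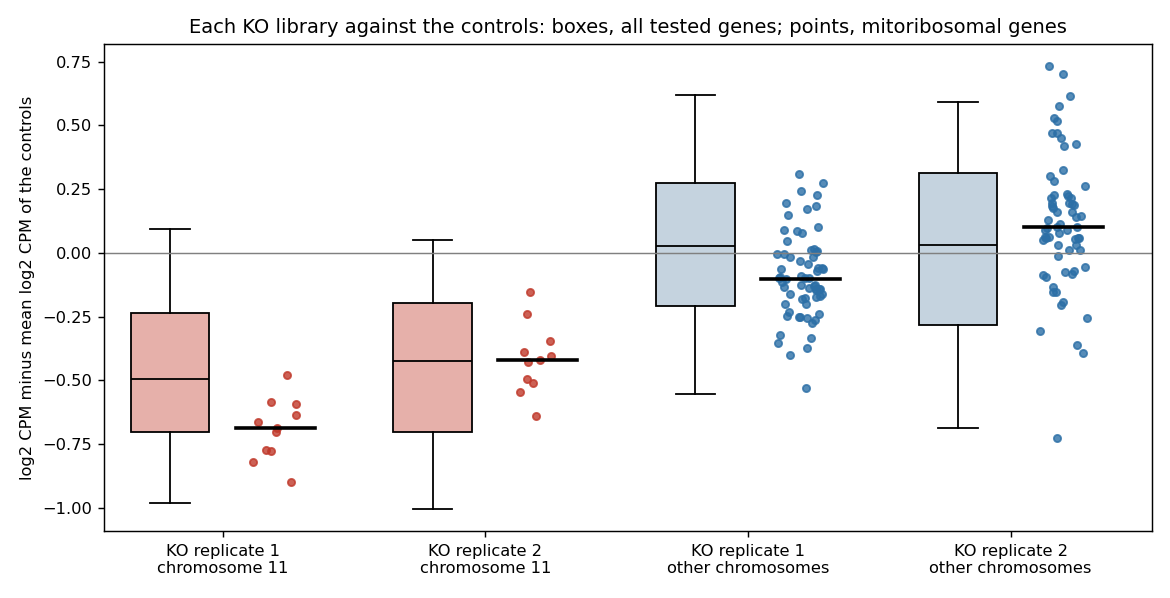
Difference in log2 CPM between each knockout library and the mean of the controls, on chromosome 11 (red) and on other chromosomes (blue). Boxes show the median and quartiles of all tested genes with whiskers from the 10th to the 90th percentile, points are mitoribosomal genes and thick bars their medians, which stand at -0.69 and -0.42 on chromosome 11 and at -0.10 and 0.10 elsewhere.

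The difference between the knockout libraries moved with the base composition of the transcripts. The 66 tested genes away from chromosome 11 were split into 3 groups of 22 by the GC content of their transcripts, with median GC of 46.1%, 50.6% and 55.3%. In knockout replicate 2 the median differences from the controls were -0.00, 0.08 and 0.25 in that order, and in knockout replicate 1 they were -0.12, -0.11 and -0.10. Across these 66 genes, which share their libraries, GC content and the difference from the controls had a Pearson r of 0.67 and a Spearman rho of 0.65 in knockout replicate 2, and of 0.28 and 0.24 in replicate 1. Between the controls the values were 0.26 and 0.31. Over all 14532 genes away from chromosome 11, Pearson r was 0.41 in knockout replicate 2, 0.19 in replicate 1 and 0.08 between the controls. These values are descriptions across genes, which are not independent replicates, and the part of GC content in the members' changes was not tested. With an offset for GC content in the fit, edgeR called all 11 genes of chromosome 11 lower, beside 49.2% of all genes of that chromosome. It called 0 members elsewhere in either direction, beside 5.31% lower and 5.44% higher among all genes there.

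**Figure D3:**
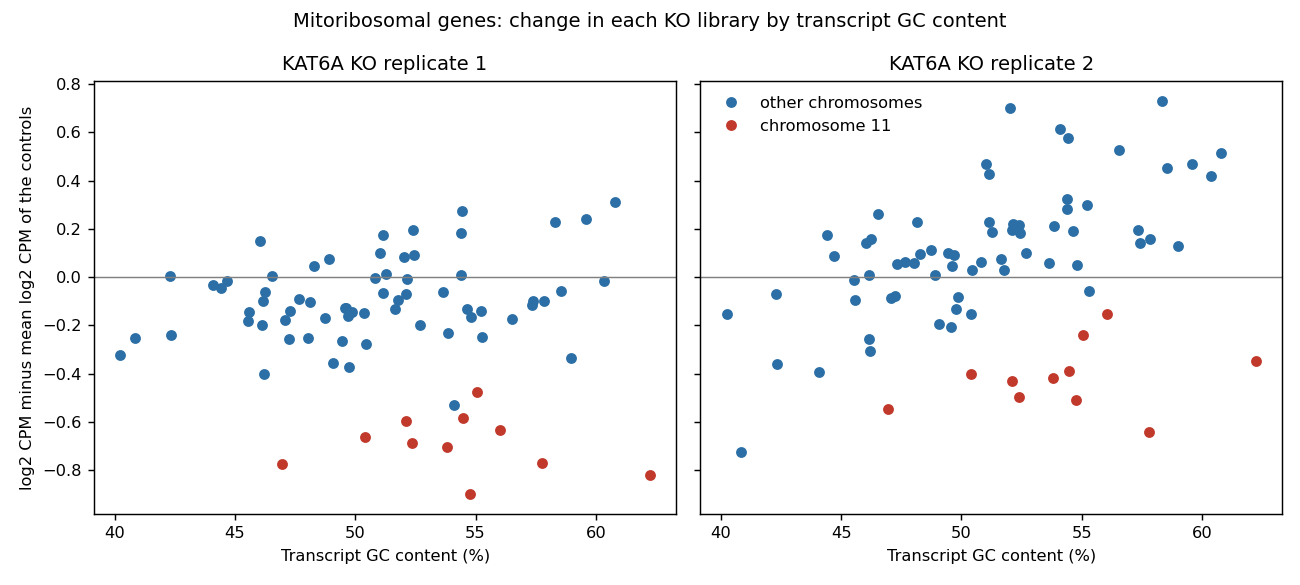
Transcript GC content (%) against the difference in log2 CPM from the mean of the controls, for knockout replicate 1 (left) and replicate 2 (right); each point is 1 mitoribosomal gene, red on chromosome 11. The blue points rise with GC content in replicate 2 (Pearson r 0.67) and less so in replicate 1 (0.28), and in both panels the red points lie below 0.

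Levels per kilobase of exon count every annotated exon of a gene, which need not match the length of the mRNA made. Mrpl48 was divided by 8152 bases and Mrpl41 by 888, so ranks between genes depend partly on the annotation. On this scale Mrpl12 led the set in the controls at 86.4 CPM per kilobase. It was followed by Mrpl2 at 84.5, Mrpl45 at 80.3 and Mrpl28 at 77.4. In the knockout the highest were Mrpl2 at 87.4, Mrpl28 at 78.8, Mrpl18 at 76.3 and Mrps28 at 67.6 CPM per kilobase. Mrpl12, at 66.7, and Mrpl45, at 50.9, both on chromosome 11, no longer stood among the first 4. At the other end stood Mrpl23, which control replicates 1 and 2 counted 18 and 22 times and knockout replicates 1 and 2 counted 11 and 24 times, at 0.11 CPM per kilobase in the controls. Its log2 fold change was 0.66 without knockout replicate 1 and -0.61 without replicate 2, so its direction was not detectable at this depth. The other low members on this scale were Mrps36 at 1.49, Mrpl48 at 1.99 and Mrps33 at 3.17 CPM per kilobase. Mrpl53 had 0 counts in every library, which allows up to 0.0803 to 0.109 CPM (3 counts of a library's total, counting error only). Other annotated genes on the same strand cover 88.0% of its exon bases, and whether reads were withheld from it for that reason was not tested.

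**Figure D4:**
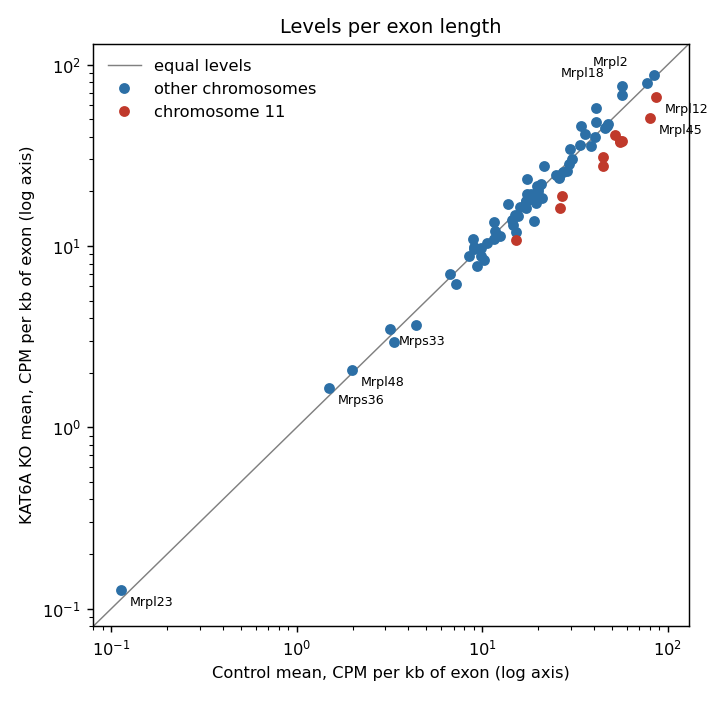
Mean level per kilobase of exon in the controls (x) and the knockout (y), in CPM per kilobase on log axes, for the 77 tested mitoribosomal genes. The red points of chromosome 11 lie below the line of equal levels, among them Mrpl12 (86.4 against 66.7) and Mrpl45 (80.3 against 50.9).

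Summed over the 78 genes, mitoribosomal mRNA was 4617 and 4636 CPM in the controls, 4037 CPM in knockout replicate 1 and 4621 CPM in knockout replicate 2. The sum was therefore lower than the controls in 1 knockout library and within their range in the other. The genes on chromosome 11 made up 972 and 979 CPM of it in the controls and 604 and 734 CPM in the knockout, or 21.1% and 21.1% of the members' counts against 15.0% and 15.9%. The genes elsewhere summed to 3645 and 3657 CPM in the controls and to 3433 and 3887 CPM in the knockout, on either side of the controls. The balance between genes of chromosome 11 and the rest thus differed in both knockout libraries, while the total did not move in 1 direction.

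The other nuclear genes of mitochondrial translation showed the same division by chromosome. Of 77 such genes, all tested, edgeR called 7 lower, all on chromosome 11, and 2 higher, both elsewhere, beside 8.57% lower and 5.76% higher among all genes. The 9 on chromosome 11 had a median log2 fold change of -0.69 and all were below 0, and the 68 elsewhere had a median of -0.02. Among 6 genes for other proteins in the mitoribosome or bound to it, 1 rose: Gadd45gip1, whose product is a large-subunit protein. Gadd45gip1 was at 33.4 and 36.8 CPM in the controls and 44.8 and 51.5 CPM in the knockout (log2 fold change 0.45 ± 0.11 SE, edgeR adjusted p = 0.0470). Among 27 assembly and rRNA factors 3 fell: the rRNA methyltransferases Mrm3 (-0.77) and Mrm1 (-0.62) and the matrix protein C1qbp (-0.42).

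Among 12 translation factors 2 fell, both on chromosome 11, the initiation factor Mtif2 (log2 fold change -0.75) and Taco1 (-0.69), an activator of cytochrome oxidase subunit translation. Among 17 mitochondrial aminoacyl-tRNA synthetases, which charge the tRNAs, 1 rose, Aars2 (0.52). Among 15 genes of mitochondrial transcription and mRNA stability 2 fell, both on chromosome 11, the elongation factor Tefm (-1.06) and the RNA-degrading enzyme Pnpt1 (-0.94). Of 10 tested nuclear regulators of mitochondrial genes 1 rose, the nuclear receptor Esrrb (0.56), which ES cells also use as a pluripotency factor. These genes passed edgeR's test with adjusted p from 0.0105 to 0.0470. The background is 8.57% lower and 5.76% higher over all genes and 40.6% lower on chromosome 11, where all the falls in these nuclear lists lie, so counts of 1 to 3 a list are close to it or too small to set against it. The calls for Mrm1, Mrm3, C1qbp, Taco1, Aars2, Gadd45gip1 and Esrrb were lost when either control was left out (adjusted p from 0.0894 to 0.419), and those for C1qbp and Gadd45gip1 were also lost with the GC offset (0.0505 and 0.0579). The call for Gadd45gip1 was lost as well with scaling on genes outside chromosome 11 (0.0571).

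The mitochondrial genome encodes the mRNAs that mitoribosomes translate and the RNAs they are built on. Of 15 genes of the mitochondrial genome 9 were tested, and the other 6 (mt-Nd3, mt-Nd4l, mt-Co2, mt-Co3, mt-Atp6 and mt-Atp8) had 0 counts in every library. These zeros stand beside 7514 and 7387 CPM for mt-Co1 in the controls and do not show that the RNAs were absent. Whether their reads were lost in mapping or counting was not tested. Of the 9, 5 fell, beside 8.57% of all tested genes, among them mt-Co1 (log2 fold change -0.74), a subunit of cytochrome oxidase, and mt-Nd1 (-0.64) and mt-Nd2 (-0.62), subunits of complex I. The mitoribosome's own RNAs, mt-Rnr1 and mt-Rnr2, were at -0.27 and -0.22 and did not pass. The libraries are of mRNA, and how far they measure the level of these rRNAs was not tested. All 9 were below 0, with a median of -0.53, in transcripts of low GC content (median 35.8%). The knockout libraries differed for this list too, with a median difference from the controls of -0.37 in replicate 1 and -0.70 in replicate 2, and replicate 2 was the lower in all 9. With the GC offset, the calls for mt-Nd1 and mt-Nd2 were lost (log2 fold changes -0.26 and -0.17, edgeR adjusted p = 0.0692 and 0.158), and mt-Co1 was at -0.45 (0.0409). The call for mt-Co1 was lost under upper-quartile scaling, without composition scaling and with a filter of 1 CPM in 2 libraries (0.0535, 0.0509 and 0.0554), and that for mt-Nd2 under the first and last of these (0.0503 and 0.0506). Without control replicate 2 the calls for mt-Nd1 and mt-Nd2 were lost as well (0.0729 and 0.0638). The part of GC content in these values was not tested.

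**Figure D5:**
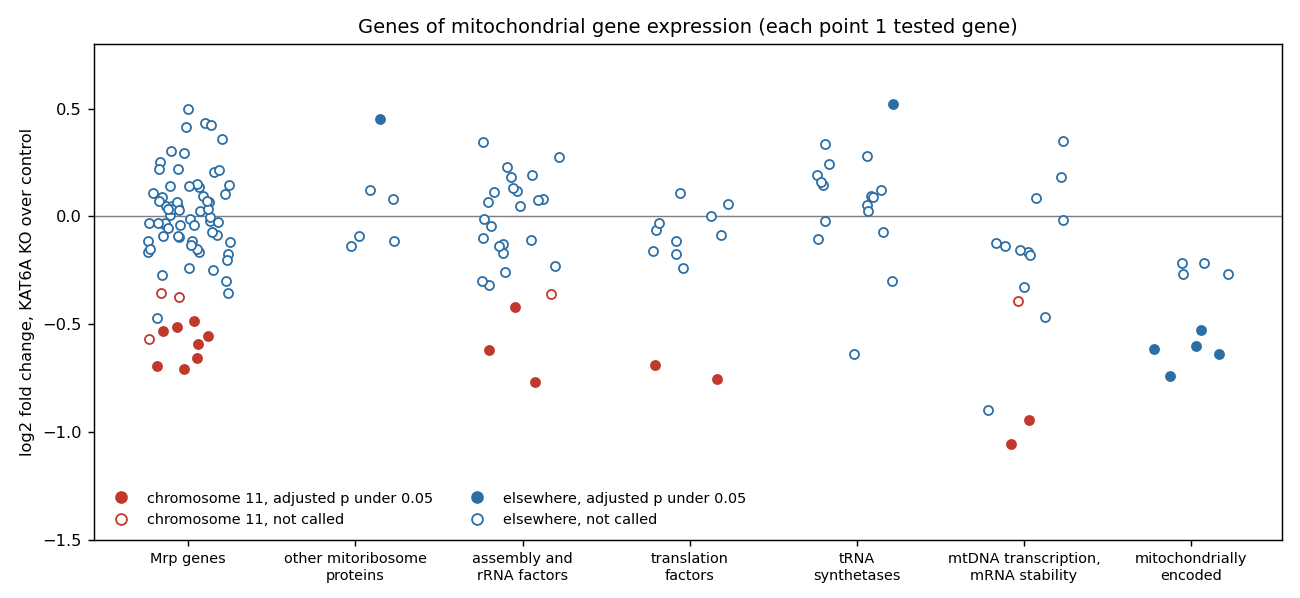
Log2 fold change (knockout over control) of each tested gene in 7 lists of mitochondrial gene expression. Red points are on chromosome 11 and filled points have an edgeR adjusted p under 0.05: the filled points below 0 are red in the nuclear lists, and the median of the mitochondrially encoded genes is -0.53.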

How the data were processed

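Messenger RNA libraries (TruSeq Stranded mRNA kit, per the labels' protocols) of 2 control and 2 KAT6A KO samples were grouped by their titles. The authors deposited whole-number read counts per gene symbol for each library, made with featureCounts per the submitters' processing notes, which also name DESeq2. Not given in the sources used here are the aligner, build, gene annotation and strandedness. Genes that overlap may therefore share or lose reads. The authors also deposited a comparison table with log2 fold changes and their standard errors, a Wald score, p-values, adjusted p-values and a mean normalized signal per gene. Its columns carry no names and were identified from their values.

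From the counts, genes passing filterByExpr were tested with edgeR 4.0.16 (TMM scaling, robust quasi-likelihood test, Benjamini-Hochberg threshold 0.05) in R 4.3.3. SE values come from the same fit. The procedure was also run on simulated counts with the same spread per gene in both groups. In the data the knockout libraries differed more from each other than the controls did, which that run does not cover. CPM values are counts divided by the scaled library size, times 1e6. No replicate pair was a duplicate (mean chi-square per gene 3.70 between controls and 34.4 between knockout libraries). Alternatives were other scalings, other filters, DESeq2 1.42.0, limma-voom 3.58.1, a replicate block, a GC offset, each library left out, and, chosen after seeing the data, scaling on genes outside chromosome 11. Positions, exon lengths and GC came from GENCODE M21 (GRCm38), matched by symbol for 97.33% of symbols and all 78 members. The build of the counts is unknown, so positions serve as annotation.

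The members and lists were chosen with earlier results of these data known. Genes named were all called members, all members on chromosome 11, the 4 members with the highest and the 4 with the lowest mean CPM, the 5 largest rises and falls, up to 3 called genes per direction in each other list, and Kat6a. By mean CPM the highest were Mrpl15, Mrpl45, Mrpl12 and Mrpl39, and the lowest Mrpl23, Mrps36, Mrps33 and Mrpl41; Mrpl15 and Mrpl39 had log2 fold changes of -0.09 and -0.04 and Mrpl41 of 0.04. Other genes named (Mrpl1, Mrpl2, Mrpl28, Mrpl46, Mrpl48, Mrpl53, Mrps11, Nrf1, Gabpa, Yy1, Mrps28, mt-Rnr1, mt-Rnr2 and the mitochondrial genes with 0 counts) were chosen after their values were seen.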

Additional observations from a re-analysis of the deposited data

How the results depend on the processing

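All 11 mitoribosomal genes on chromosome 11 were below 0 in every alternative run, and Mrpl38 and Mrpl45 were called lower in each. The 8 calls were all kept in every alternative except without control replicate 1 (2 kept) and without control replicate 2 (3 kept). Members called higher, all away from chromosome 11, numbered 0 in the main analysis, 1 under upper-quartile scaling, without composition scaling and with the block plus GC offset, 2 without a filter and with DESeq2, and 4 with the replicate block. Members called lower away from chromosome 11 (0 in the main analysis) numbered 2 without a filter, 1 with DESeq2, 2 with the replicate block and 1 with scaling on genes outside chromosome 11. Without a filter 12 members were called lower. For the other scalings, the other filters and the block plus GC offset, the share of all genes called is not given. Those member counts were therefore not set against a background. The sample titles give replicate numbers but do not say whether same-numbered libraries were handled together. The difference between the replicates had a correlation across genes of r = 0.0945 between the groups, which cannot decide this. Fitting the replicate numbers as a block gave 13 members lower and, among all tested, 1613 genes higher and 2147 lower. It also gave 4 other genes of mitochondrial translation higher. That last count was 1 with scaling outside chromosome 11. With each library left out in turn, the counts ranged from 254 to 4020 for all genes called higher, 648 to 4400 for all lower, 0 to 24 for members higher, 3 to 29 for members lower, 3 to 11 for members on chromosome 11 lower, 0 to 24 and 0 to 18 for members elsewhere higher and lower, and 0 to 17 and 3 to 22 for other genes of mitochondrial translation higher and lower. The median of the members ranged from -0.14 to 0.06 in these fits. The sign of Kat6a turned without knockout replicate 1 (-0.74) and was 0.75 without knockout replicate 2. The causes of these changes were not tested. With 2 libraries a group, changes of the size seen away from chromosome 11 could be missed. Low counts limit Mrpl23, and Mrpl53 had 0 counts in every library for a reason that was not tested.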
